A study of Canis lupus familiaris with 15 samples.

Results

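The genes described here are 59 genes of DNA replication and of the upkeep of DNA methylation, a set fixed by gene symbol that runs from the methylation reader UHRF1 to the checkpoint adaptor CLSPN. Their values were taken from RNA-Seq of canine osteosarcoma cells, and 50 of the 59 genes were listed in at least 1 of the 3 deposited tables, which together name 7699 gene symbols. The D17 table lists 49 of them, that of HMPOS 5 and that of HMPOS against POS 33. CDT1, E2F1, GINS1, ORC2, POLD1, POLD2, POLE2, PRIM1 and ASF1B were in no table. The tables hold only genes that passed the authors' test at a q-value below 0.05, so an absent gene has no value here and cannot be called unchanged.

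RNA from 5 groups of 3 libraries each was sequenced, and every group is a canine osteosarcoma cell line with no treatment named in the labels. Extravasation-positive D17 and extravasation-positive HMPOS are sub-lines expanded in culture from tumor cell clusters that had left the vessels of zebrafish embryos. Parental D17 and parental HMPOS are the lines they came from, kept in vitro without passage through a fish, and parental POS is the line from which the highly metastatic HMPOS was derived. The article describes biological replicates of the isolated clusters, but which fish or clusters stand behind each sub-line library is not given in the sources used here, and the sub-lines differ from their parents in their culture history as well as in extravasation. Each group has 1 value per gene in FPKM (fragments mapped to a gene, scaled by transcript length and by the mapped total), which pools its libraries, so no spread between libraries, no depth and no error can be given. All log2 ratios below are on the FPKM scale with no pseudocount, and are extravasated over parental cells or HMPOS over POS cells. The extravasation tables call their groups meta and norm, and norm, the name that the parental POS group also carries, was read as parental, so each direction in D17 and HMPOS rests on that reading. The sources used here do not define these names. The article reports more genes down than up after extravasation in both lines. By the reading used here, more listed genes were higher than lower in both. The article's counts thus lie nearer the opposite reading, while the name of the POS group favors the one used. The opposite reading would exchange every direction given for extravasation, so those directions are in doubt. The direction of HMPOS against POS does not depend on it, but the HMPOS group there is also named norm. Calling that group parental therefore rests on the same reading, and under the opposite one it would hold extravasated HMPOS cells.

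Replication of DNA proceeds in steps that these genes follow closely. The origin recognition complex with CDC6 and CDT1 loads the MCM helicase on DNA, the kinases CDC7 and CDK2 then fire the loaded origins, and polymerases held by the sliding clamp PCNA copy each strand. Behind the fork, UHRF1 binds hemimethylated CpG sites and brings in DNMT1, which methylates the new strand. Most of these genes are transcribed in late G1 and S phase under the E2F factors, so their summed level in a culture is commonly read as a sign of how many cells are cycling.

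By the group names in the table, extravasated D17 cells had lower values than parental D17 cells for 49 of the 49 listed genes, and for none was the value higher. Under the opposite reading of the names all of them would be higher. Among all 4412 genes in that table, 45.8% were lower and 54.2% higher in extravasated cells. The median log2 ratio of the 49 genes was -1.14, against 0.39 for all listed genes, and the ratios ran from -2.26 for UHRF1 to -0.42 for RFC1. A fold change above 2 was reached by 33 of the 49 genes, all lower, whereas 8.50% of all listed genes were lower and 18.3% higher by that much. All 49 also lay below the median of the table, which had to follow because that median is above 0. The median level of the 49 genes was 43.6 FPKM in parental and 17.7 FPKM in extravasated cells, and none was below 2.23 FPKM in either group, so none of these ratios rests on a value near 0. In such bulk libraries, fewer cells in S phase and less RNA per cycling cell cannot be told apart.

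**Figure D1:**
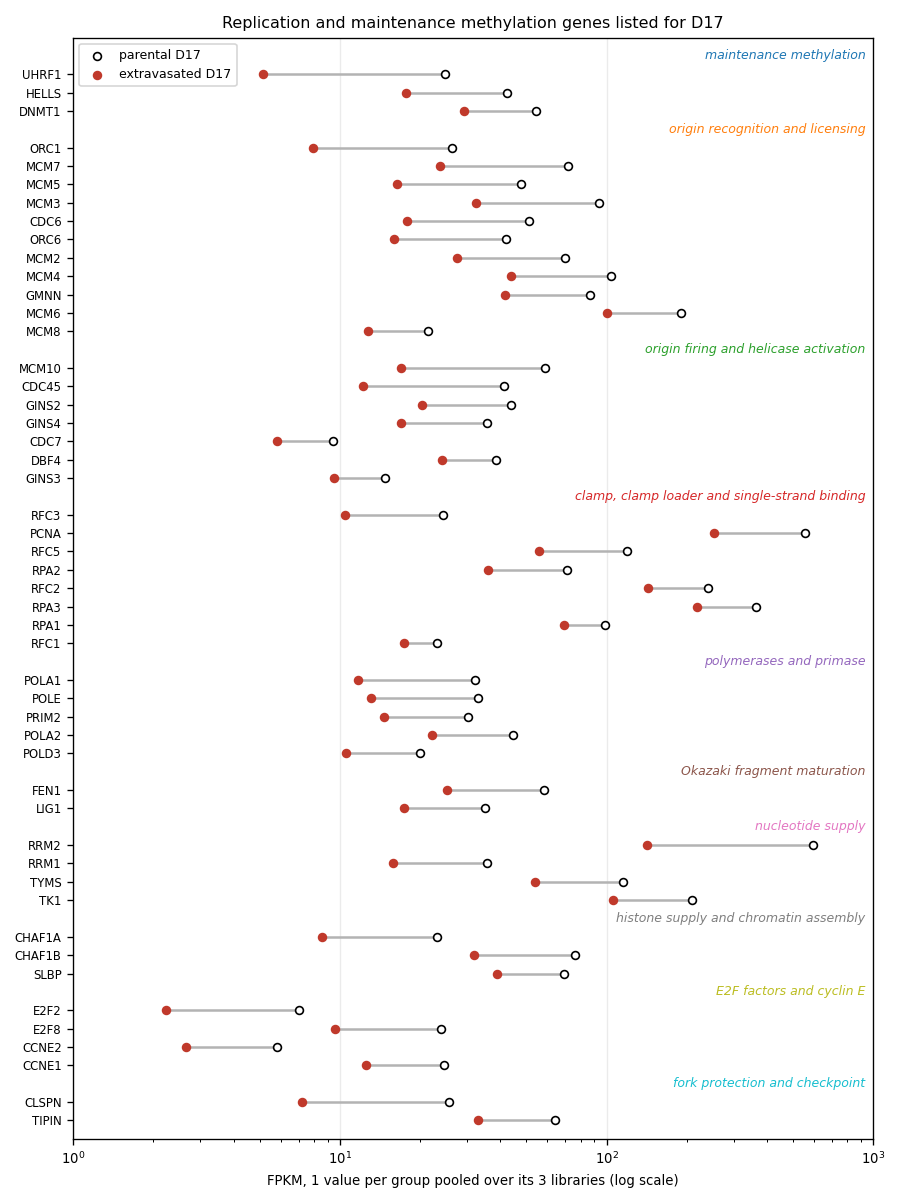
FPKM of the 49 listed genes in extravasated (filled) and parental (open) D17 cells on a log axis, grouped by role and ordered by log2 ratio, with 1 value per group pooled over 3 libraries. Every filled point lies to the left of its open point, and the widest gap is that of UHRF1, at 5.16 against 24.7 FPKM.

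UHRF1 had the lowest ratio of the set and the 10th lowest among the 2019 genes of the D17 table that were lower in extravasated cells and had a value above 0 in both groups. It was at 5.16 FPKM after extravasation and 24.7 FPKM in the parent line, a 4.79-fold difference. DNMT1, the enzyme that UHRF1 recruits, was at 29.2 and 54.2 FPKM, a log2 ratio of -0.89. HELLS, a chromatin remodeler needed for normal methylation of repeats, was at 17.7 and 42.3 FPKM, a log2 ratio of -1.25. The 3 genes were thus lower to unequal degrees. UHRF1 stood at 0.456 of the DNMT1 level in parental cells and at 0.177 of it in extravasated cells, while DNMT1 kept a similar level relative to PCNA, at 0.0977 and 0.116 of it. The table places UHRF1 (ENSCAFG00000018934) on chromosome 20 from 54858658 to 55077477 and DNMT1 (ENSCAFG00000017892), also on this chromosome, from 50855370 to 50928022, by the CanFam3.1 build named in the submitters' processing notes. That interval of UHRF1 is 6.82 times as long as the gene in RefSeq's annotation of another dog assembly and overlaps DPP9, which was at 15.4 FPKM after extravasation and 22.7 FPKM in the parent line, so reads of both genes may not be fully separated. 

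Of the other genes of DNA methylation, 8 of 20 on a fixed list were in the D17 table, with 7 lower and 1 higher and a median log2 ratio of -0.53. DNMT3B, a de novo methyltransferase, was at 2.11 FPKM after extravasation and 3.54 FPKM in the parent line. CDCA7L, a relative of the HELLS partner CDCA7, was at 58.6 and 97.9 FPKM. MAT2A, which makes the methyl donor S-adenosylmethionine, was at 76.6 and 123 FPKM, and its regulatory partner MAT2B was the 1 gene higher in extravasated cells, at 183 and 141 FPKM. None of the 8 reached a fold change of 2. DNMT3A and CDCA7 were not listed in any of the tables.

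Genes that recognize and license origins were lower for 11 of 11 listed genes in D17, with a median log2 ratio of -1.40. The helicase subunits MCM2, MCM3, MCM4, MCM5, MCM6 and MCM7, which form 1 ring, were all listed. MCM7 was at 23.7 FPKM after extravasation and 71.6 FPKM in the parent line, MCM5 at 16.3 and 47.9 FPKM, and MCM3 at 32.5 and 93.3 FPKM. MCM6 was the most abundant subunit and the least changed, at 100.3 and 189.8 FPKM, a log2 ratio of -0.92 against -1.59 for MCM7. The level of MCM6 relative to MCM5 was therefore 6.14 in extravasated and 3.96 in parental cells. ORC1, the origin subunit whose level follows the cell cycle, was at 7.91 and 26.3 FPKM, and ORC6 at 16.0 and 42.1 FPKM. The loader CDC6 was at 17.8 and 51.0 FPKM, and GMNN, which encodes the licensing inhibitor geminin, at 41.7 and 86.4 FPKM. The loader had the larger difference, at 0.427 of the GMNN level in extravasated and 0.591 in parental cells. MCM8, a helicase that acts in recombination rather than licensing, had the smallest change of this group, at 12.7 and 21.4 FPKM, and its interval overlaps that of TRMT6, whose log2 ratio was -0.55.

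Origin firing genes split in size of change though not in direction, with 7 of 7 lower in extravasated D17 cells. MCM10, which helps to activate the helicase, was at 16.99 FPKM after extravasation and 58.6 FPKM in the parent line, a log2 ratio of -1.79. CDC45, the subunit that completes the active helicase, was at 12.2 and 41.3 FPKM. Both lay beyond a fold change of 3. The kinase CDC7 was at 5.83 and 9.44 FPKM and its activator DBF4 at 24.1 and 38.6 FPKM, so their ratio stayed near 4.13 and 4.08. DBF4 has an interval 5.97 times as long as in RefSeq's annotation of another dog assembly, so its values may hold reads of a neighbor. Of the GINS complex, GINS2 was at 20.3 and 43.6 FPKM, GINS4 at 16.98 and 35.7 FPKM and GINS3 at 9.53 and 14.7 FPKM.

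The clamp, its loader and the single-strand binding proteins were lower for 8 of 8 listed genes, with the smallest median change of any role, -0.87 on the log2 scale. PCNA was at 252 FPKM after extravasation and 555 FPKM in the parent line. Within the clamp loader, RFC3 was at 10.5 and 24.3 FPKM, RFC5 at 55.7 and 119.5 FPKM and RFC2 at 142 and 240.4 FPKM. RFC1, the large subunit, was at 17.3 and 23.2 FPKM and had the change nearest to 0 of all 49 genes. RPA1 and RPA2, which coat single-stranded DNA, were at 69.2 and 98.6 FPKM and at 35.9 and 70.9 FPKM. The gene listed as RPA3 was at 218 and 363 FPKM, but its interval spans 363 bases on chromosome 11 whereas RefSeq places RPA3 on another chromosome with a longer span, so this row may hold reads of an intronless copy and is uncertain.

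Among polymerase and primase genes, 5 of 5 listed genes were lower. POLA1, the catalytic subunit of the priming polymerase, was at 11.6 FPKM after extravasation and 32.0 FPKM in the parent line. POLE, the catalytic subunit of the leading strand polymerase, was at 13.1 and 32.8 FPKM. PRIM2, the large primase subunit, was at 14.7 and 30.2 FPKM, and POLD3, a subunit of the lagging strand polymerase, at 10.5 and 19.9 FPKM. Of the Okazaki fragment genes, the flap nuclease FEN1 was at 25.2 and 58.4 FPKM and the ligase LIG1 at 17.4 and 35.0 FPKM.

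Nucleotide supply held the second lowest ratio of the set. RRM2, the small subunit of ribonucleotide reductase, was the most abundant of the 49 genes in parental D17 cells, at 592 FPKM, and was at 141 FPKM in extravasated cells, a 4.19-fold difference. RRM1, the large subunit, was at 35.7 FPKM in parental and 15.8 FPKM in extravasated cells. The small subunit thus stood at 16.6 times the level of the large one in parental and at 8.94 times in extravasated cells. Thymidylate synthase (TYMS) was at 115 and 54.1 FPKM and thymidine kinase (TK1) at 208 and 106 FPKM in parental and extravasated cells, and these enzymes had similar changes.

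Chromatin assembly, cell cycle entry and checkpoint genes followed the same direction in D17. CHAF1A and CHAF1B, subunits of the histone chaperone CAF-1, were at 8.55 and 31.8 FPKM in extravasated and at 23.1 and 76.4 FPKM in parental cells. SLBP, which binds the stem-loop of histone mRNA, was at 38.7 FPKM after extravasation and 69.3 FPKM in the parent line. The activating factor E2F2 was at 2.23 and 7.03 FPKM, and the repressor E2F8, itself a target of E2F, at 9.59 and 24.0 FPKM. Both cyclins that start S phase were lower, CCNE1 at 12.5 and 24.6 FPKM and CCNE2 at 2.64 and 5.82 FPKM. CLSPN, the claspin gene of the replication checkpoint, had the third lowest ratio of the set, -1.83, at 7.21 and 25.6 FPKM, against 32.9 and 63.8 FPKM for TIPIN, which stabilizes the fork.

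The change was not limited to the 59 genes. Of 48 further replication genes on a fixed list, 30 were listed for D17 and all 30 were lower after extravasation, at a median log2 ratio of -0.88. RECQL4, a helicase needed for initiation, was at 5.01 FPKM after extravasation and 19.9 FPKM in the parent line, CDC25A, the phosphatase that activates CDK2, at 6.51 and 19.5 FPKM, and ATAD5, which unloads PCNA, at 3.96 and 11.3 FPKM. The S and G2 phase genes CCNA2 and TOP2A were at 46.6 and 125 FPKM and at 42.9 and 116 FPKM. Of 28 mitosis genes, 25 were listed and all 25 were lower, with a median log2 ratio of -1.15, close to the -1.14 of the replication set. CCNF, an F-box protein that counters excess CDC6 and RRM2, was at 13.2 and 37.9 FPKM, the ubiquitin carrier UBE2C at 169.9 and 473 FPKM and the kinetochore motor CENPE at 6.26 and 17.4 FPKM. The part of a change in the share of cycling cells in the replication genes was not tested. MKI67 and RB1 were not listed in any table.

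Of 29 genes that control E2F and the cell cycle, 16 were listed for D17, with 12 lower and 4 higher. MYBL2 and FOXM1, transcription factors of the later cell cycle, were at 47.5 and 135 FPKM and at 15.1 and 34.6 FPKM in extravasated and parental cells, and E2F7, a repressor, at 3.45 and 9.84 FPKM. CDKN1A, which encodes the kinase inhibitor p21, went the other way, at 45.2 FPKM after extravasation and 22.2 FPKM in the parent line, a log2 ratio of 1.03. RBL2, the pocket protein of resting cells, was at 10.4 and 5.75 FPKM, CCND3 at 29.4 and 21.7 FPKM and LIN37 at 21.7 and 15.6 FPKM.

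**Figure D2:**
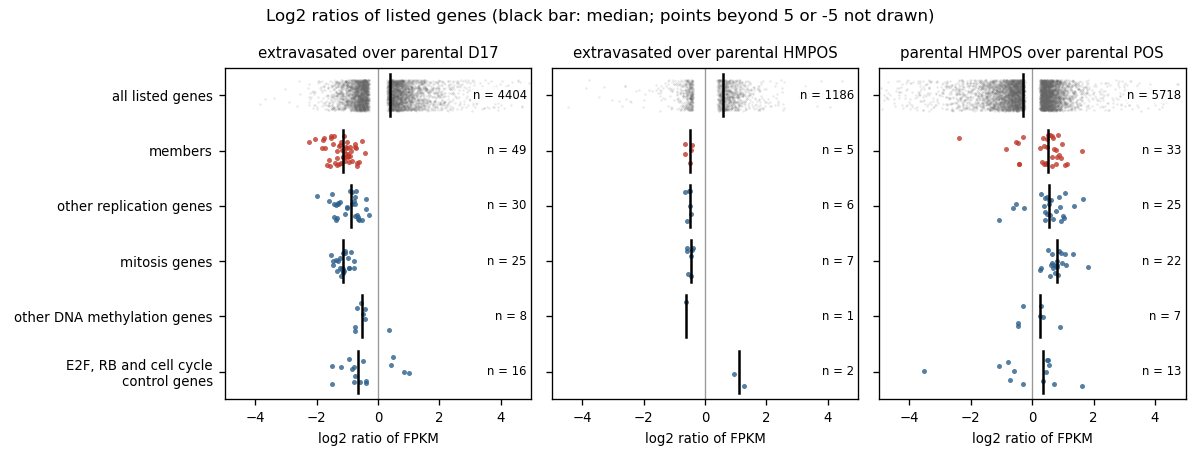
Log2 ratios of FPKM in each table for all listed genes, the replication and methylation set (members) and the 4 fixed lists, where a point is 1 gene, a black bar the median and the vertical line 0. All 49 members lie below 0 in D17 and all 5 in HMPOS, while 26 of 33 lie above 0 for HMPOS over POS.

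The genes were spread over 27 chromosomes in the D17 table, with at most 4 on any of them. Other listed genes within 1 Mb of a member numbered 358, and 45.3% of these were lower in extravasated cells, close to the 45.8% of the whole table. For UHRF1, 10 of 17 such neighbors were lower, for DNMT1 10 of 20 and for RRM2 6 of 12. In the HMPOS table the 5 listed members had 16 such neighbors, of which 14 were lower, or 87.5% against 33.0% of that table, with 4 of 4 lower beside each of MCM3, PRIM2 and TIPIN. For HMPOS against POS 48.1% of 283 neighbors were higher in HMPOS, against 47.7% of that table.

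In extravasated HMPOS cells 5 of the 59 genes were listed, and all 5 were lower than in parental HMPOS cells by the group names, or higher under the opposite reading, against 33.0% lower and 67.0% higher among the 1189 genes in that table. None reached a fold change of 2, which 4.79% of all listed genes did downward and 20.5% upward. E2F8 was at 12.5 FPKM after extravasation and 19.8 FPKM in the parent line, a log2 ratio of -0.67, and PRIM2 at 37.8 and 59.6 FPKM, a log2 ratio of -0.66. MCM3 was at 98.0 and 137 FPKM, TIPIN at 53.4 and 72.5 FPKM and CDC7 at 15.2 and 20.6 FPKM. These are 1 gene each of cell cycle entry, priming, licensing, fork protection and firing. UHRF1, DNMT1, HELLS and PCNA were not listed for HMPOS. The median log2 ratio of the 5 genes was -0.49, against 0.58 for all listed genes.

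The same 5 genes were lower in both lines, and no member was lower in 1 line and higher in the other. How all genes listed for both lines divide by direction was not computed, so this count has no background beside it. The changes were smaller in HMPOS than in D17 for each of them, for instance -0.49 against -1.52 for MCM3 and -0.67 against -1.32 for E2F8, but the difference between the lines was not tested. Further replication genes had the same direction in HMPOS, with 6 of 48 listed and all 6 lower, among them the nuclease DNA2 at 19.9 FPKM after extravasation and 31.5 FPKM in the parent line, FBXO5 at 26.6 and 39.7 FPKM and the nucleoside kinase DCK at 40.3 and 57.9 FPKM. Of the mitosis genes 7 of 28 were listed and all 7 were lower, with a median log2 ratio of -0.46, and CENPE was at 24.9 and 37.7 FPKM, NUF2 at 33.1 and 49.9 FPKM and NDC80 at 57.7 and 84.0 FPKM. MAT2B, the 1 methylation gene of the fixed list in the HMPOS table, was at 53.2 and 81.8 FPKM, the opposite of its direction in D17, a difference between the lines that was not tested. CDKN1A was higher in the extravasated cells of HMPOS too, at 10.3 and 5.33 FPKM. CCND2, a cyclin of G1 phase, was higher in extravasated HMPOS cells, at 3.85 and 1.59 FPKM, and lower in extravasated D17 cells, at 10.5 and 13.8 FPKM.

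**Figure D3:**
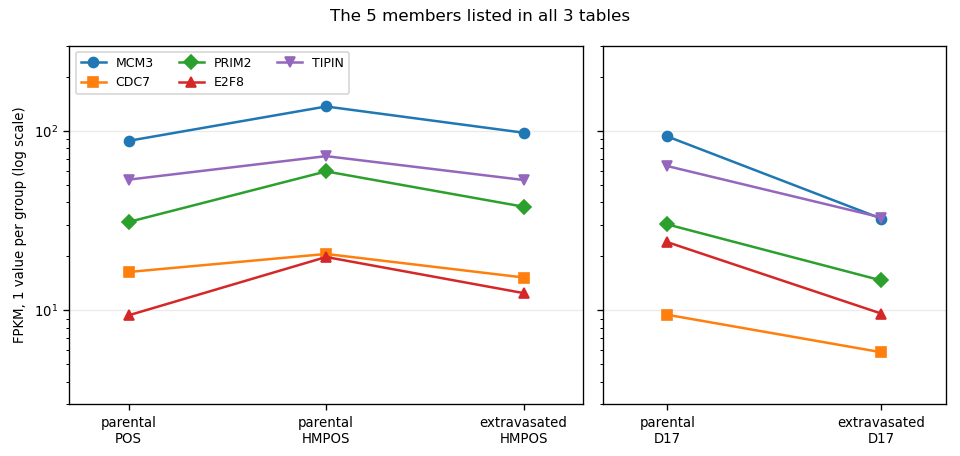
FPKM on a log axis of the 5 genes listed in all tables, with parental POS, parental HMPOS and extravasated HMPOS on the left and parental and extravasated D17 on the right, 1 pooled value per group. By the group names as read here, each line peaks at parental HMPOS on the left and descends on the right. PRIM2, for instance, was at 31.1, 59.6 and 37.8 FPKM on the left. Levels of the left and right panels were scaled in separate tables.

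Parental HMPOS cells, so called by the same reading of norm, showed a different picture when compared with parental POS cells. Of 33 listed genes, 26 were higher and 7 lower in HMPOS, whereas 47.7% of the 5746 genes in that table were higher and 52.3% lower. The median log2 ratio was 0.52, against -0.31 for all listed genes. Most differences were small, and a fold change above 2 was reached by 3 genes that were higher, where 8.49% of all listed genes were higher by that much, and by 1 that was lower, where 19.1% were. Relative to the median of the table RPA2 also became higher, which makes 27 and 6. This comparison and that of extravasated HMPOS share the parental HMPOS libraries, so a high parental value moves the ratios of both, and the 5 genes in both tables had parental HMPOS values that differed by at most 0.0994% between them.

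**Figure D4:**
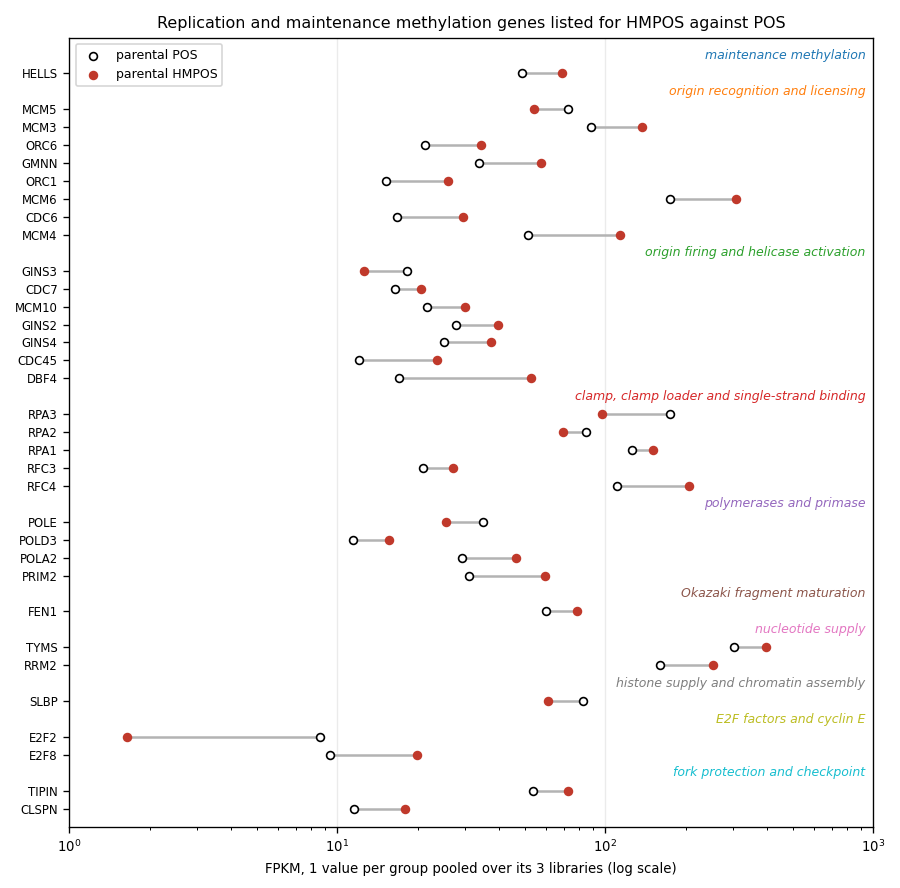
FPKM of the 33 listed genes in parental HMPOS (filled) and parental POS (open) cells on a log axis, grouped by role, with 1 value per group pooled over 3 libraries. Filled points lie to the right for 26 genes, and E2F2, at 1.64 against 8.65 FPKM, is the widest gap to the left.

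DBF4 had the highest ratio, at 52.6 FPKM in HMPOS against 16.9 FPKM in POS cells, a log2 ratio of 1.63. Its kinase CDC7 was at 20.6 and 16.4 FPKM, so that DBF4 stood at 2.55 times the CDC7 level in HMPOS and at 1.04 times in POS. The interval given for DBF4 is 5.97 times as long as in RefSeq's annotation of another assembly, and reads of a neighbor cannot be set apart. MCM4 was at 113 FPKM in HMPOS against 51.6 FPKM in POS cells, and E2F8 at 19.8 and 9.38 FPKM. CDC45 was at 23.5 and 12.1 FPKM, PRIM2 at 59.5 and 31.1 FPKM and RFC4, which was not listed for D17, at 205 and 111 FPKM. The interval of RFC4 overlaps that of EIF4A2, whose log2 ratio was 0.61.

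Within complexes the direction was mixed. Of the MCM ring, MCM3 was at 137 and 88.2 FPKM, MCM4 at 113 and 51.6 FPKM and MCM6 at 308 and 174 FPKM in HMPOS and POS cells. MCM5 went the other way, at 54.3 and 72.3 FPKM. MCM4 thus stood at 2.09 of the MCM5 level in HMPOS and at 0.713 of it in POS, and MCM2 and MCM7 were not listed. GINS3 was lower in HMPOS, at 12.6 and 18.1 FPKM, whereas GINS2 and GINS4 were higher, at 39.7 and 27.8 FPKM and at 37.3 and 24.9 FPKM. POLE was lower, at 25.5 and 34.9 FPKM, whereas POLA2, the accessory subunit of the priming polymerase, was higher, at 46.3 and 29.1 FPKM. RPA1 was higher, at 151 and 126 FPKM, and RPA2 lower, at 69.4 and 85.0 FPKM, though RPA2 lay 0.01 above the median log2 ratio of the table.

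E2F2 had the lowest ratio, at 1.64 FPKM in HMPOS against 8.65 FPKM in POS cells, a 5.28-fold difference. The remaining genes that were lower in HMPOS were SLBP, at 61.0 and 82.5 FPKM, and the uncertain RPA3 row, at 97.2 and 175 FPKM. HELLS was the only gene of maintenance methylation in this table, at 69.1 FPKM in HMPOS against 48.9 FPKM in POS cells. Licensing genes were higher for 7 of 8 listed genes, among them CDC6 at 29.6 and 16.6 FPKM, ORC1 at 25.8 and 15.2 FPKM and GMNN at 57.6 and 33.9 FPKM. Both nucleotide genes listed were higher, RRM2 at 252 and 159.7 FPKM and TYMS at 399 and 302 FPKM.

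All 22 mitosis genes listed for this comparison were higher in HMPOS, with a median log2 ratio of 0.80, and 21 of 25 further replication genes were higher, with a median of 0.54. The kinase AURKA was at 155 and 61.6 FPKM in HMPOS and POS cells and CENPE at 37.7 and 17.4 FPKM. CCNA2 was at 149.6 FPKM in HMPOS against 47.9 FPKM in POS cells, TOP2A at 155 and 103 FPKM, DCK at 57.8 and 22.7 FPKM and DNA2 at 31.5 and 15.0 FPKM. MCM9, the partner of MCM8, went the other way, at 6.08 and 12.7 FPKM. Of the methylation list 4 genes were higher and 3 lower, with the glycosylase TDG at 42.3 and 22.6 FPKM and the demethylation enzymes TET1 and TET3 at 2.23 and 3.05 FPKM and at 0.676 and 0.940 FPKM. Regulators moved both ways, with 7 higher and 6 lower of 13 listed. E2F5, a factor that acts with pocket proteins, was at 11.5 and 3.69 FPKM in HMPOS and POS cells, whereas the inhibitor genes CDKN1A and CDKN1B were at 5.32 and 11.3 FPKM and at 26.2 and 43.6 FPKM. CCND2 was at 1.59 and 18.4 FPKM, and CDK4, the kinase of D-type cyclins, at 246 and 373 FPKM. The part of a difference in the share of cycling cells between HMPOS and POS was not tested.

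Both D17 and HMPOS against POS, which share no libraries, listed 32 of the genes. Of these, 25 were lower in extravasated D17 cells and higher in HMPOS than in POS cells, and 7 were lower in both, namely MCM5, GINS3, RPA2, RPA3, POLE, SLBP and E2F2. How all genes listed for both comparisons divide was not computed, so this split cannot be called particular to these genes. Listed for D17 alone were 17 genes, including UHRF1, DNMT1, PCNA, RRM1, TK1, both CAF-1 subunits and both E cyclins.

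**Figure D5:**
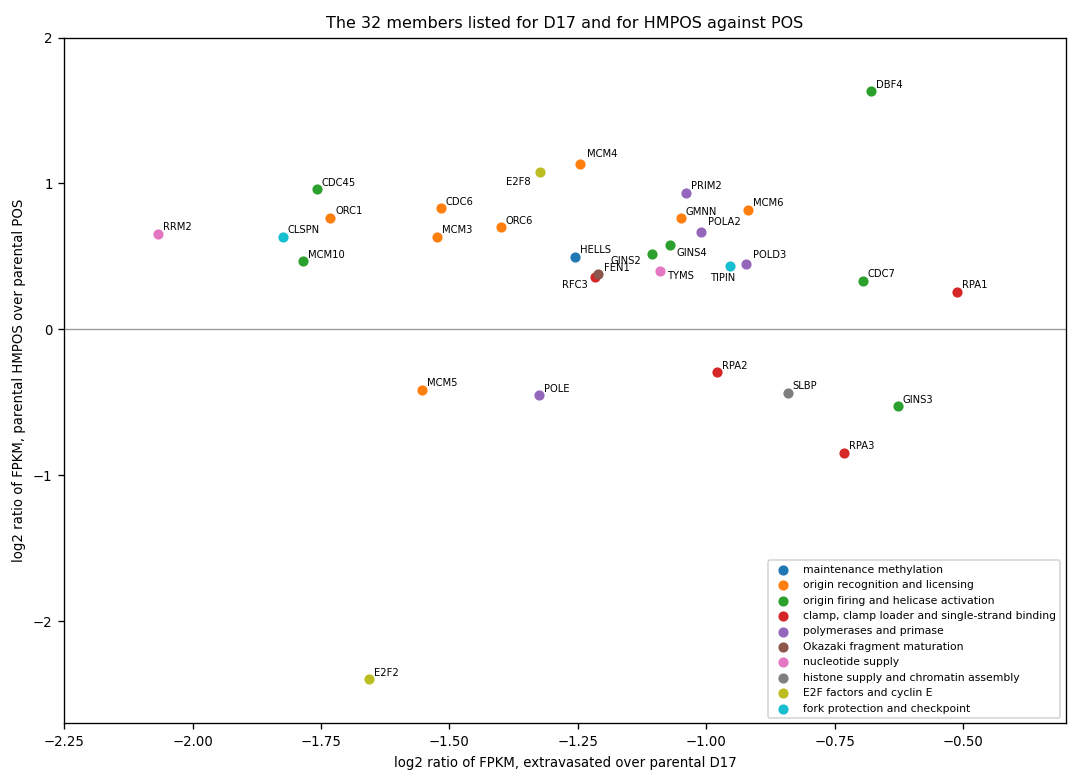
Log2 ratios of the 32 genes listed in both tables, extravasated over parental D17 cells on the horizontal axis and parental HMPOS over parental POS cells on the vertical axis, where a point is 1 gene colored by role and the horizontal line marks 0. The 25 genes above the line run from RPA1 at 0.26 to DBF4 at 1.63, and E2F2 lies lowest at -2.40.

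Markers of the cells were read from the same tables. Of 10 genes of the bone lineage, 5 were listed for D17, 5 for HMPOS and 6 for HMPOS against POS, with SPARC at 433 FPKM after extravasation and 187 FPKM in the D17 parent line. Of 5 hematopoietic markers none was listed in any table, and of 5 endothelial markers KDR alone was listed, at 0.146 FPKM in HMPOS against 1.73 FPKM in POS cells. Of 5 epithelial markers EPCAM was at 1.72 and 0.431 FPKM and CDH1 at 1.47 and 0.0783 FPKM in extravasated and parental D17 cells, and CDH1 was at 3.04 and 1.49 FPKM in extravasated and parental HMPOS cells and at 1.49 FPKM in HMPOS against 4.30 FPKM in POS cells. The part of such cells in the replication genes was not tested.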

How the data were processed

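RNA was sequenced from 15 libraries in 5 groups of 3. Per the labels, processing used Trimmomatic 0.38, TopHat2, Cufflinks and Cuffdiff on CanFam3.1, whereas the article names STAR, voom and limma. Its kits for RNA and libraries also differ from those in the labels. The FPKM values deposited by the authors are 1 per gene and group, scaled within each table, and their p-values and q-values, fold changes and test statistics were deposited beside them but not used. The q-value was read only to check that every row lies below 0.05, and every row is marked significant. Single-sample columns left unused numbered 0.

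Groups follow the sample titles. POS has parental libraries alone and is named norm in its table, so norm was read as parental and meta as extravasated. The HMPOS group set against POS is also named norm and is called parental by that reading. Over 907 genes in both HMPOS tables the median absolute log2 difference of the parental values was 0.00135.

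Rows were matched by exact symbol (59 of 59 symbols are in RefSeq's table). Ratios and counts were computed and no test was run, because each group has 1 value. The set, the lists and the named genes (UHRF1, DNMT1, HELLS, members in all tables, beyond a fold change of 2, in the minority direction or at either end of their role, and the 3 largest changes per list) were chosen with earlier results of these data known. Members outside this rule were named after their values were seen. A result that the rule covers is not reported here. The number of genes the authors tested and the depth per library are unknown, and no sequence was used. The ratio code was checked on simulated data. Alternatives were a fold change above 2 or 1.5, filters at 1 and 5 FPKM, a pseudocount of 1, centring, a shorter member list and exchanged group names, plus 1 added after seeing the data. Python 3.11.15, numpy 2.4.6, pandas 2.3.3 and matplotlib 3.10.9 were used.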

Additional observations from a re-analysis of the deposited data

How the results depend on the processing

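The 49 lower genes in extravasated D17 cells became 33 at a fold change above 2, 47 above 1.5, 48 with a pseudocount of 1 and a log2 ratio of at least 0.5, and stayed at 49 with either FPKM filter and after centring. The filters and centring could not change that count. The lowest parental value was 5.82 FPKM, above both filters, and the median of all listed genes was above 0. The 5 lower genes in HMPOS, which are also the 5 shared by both lines, became 0 at a fold change above 2, 2 above 1.5 and 2 with the pseudocount. For HMPOS against POS, the 26 higher and 7 lower genes became 3 and 1 at a fold change above 2, 15 and 2 above 1.5, and 17 and 2 with the pseudocount. These alternatives count fewer genes by construction. With the group names of the extravasation tables exchanged, 49 genes would be higher and 0 lower in D17, and 5 higher and 0 lower in HMPOS, so every extravasation direction rests on reading norm as parental, which the sources used here do not define. Leaving out UHRF1, DBF4 and RPA3, whose intervals depart from RefSeq's, an alternative chosen after seeing the data, gave 46 lower in D17 and 25 higher and 6 lower for HMPOS against POS. The log2 ratio of UHRF1 in D17 was -2.06 with a pseudocount of 1 and -2.64 after centring. UHRF1 and DNMT1 were not listed in the other tables and gave no value there. No paired analysis was possible because each group is given as a single pooled value, and no replicate could be left out for that reason. The unknown depth limits the genes of low level most, such as E2F2 and CCNE2.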
